A study of Mus musculus with 4 samples.

Results

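The MYC, MAX and MXD network is described here by the mRNA levels of 10 genes, Myc, Mycn, Mycl, Max, Mxd1, Mxd3, Mxd4, Mxi1, Mnt and Mlx, out of 51905 genes in the deposited tables. The genes were chosen by name, and each symbol matched 1 gene identifier. RNA was sequenced from the mouse colorectal cancer lines CT26 and MC38, which the labels give as wild type in genotype. Both lines received lentiviral short hairpins, lenti-shGFP as the control or lenti-shmaurka-1 against the mouse Aurora-A mRNA, and RNA was collected 48 h after seeding. Infected cells were selected with puromycin as a population, and 1 hairpin against Aurora-A was sequenced. There is 1 library for each of the 4 combinations, so a difference within a line has no replicate behind it, and the 2 lines are the only repetition of the knockdown.

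MYC proteins are basic helix-loop-helix leucine zipper transcription factors that bind E-box DNA as dimers with MAX and switch on genes for growth, ribosome production and metabolism. MXD proteins (MXD1, MXI1, MXD3 and MXD4) and MNT compete with MYC for MAX at the same sites and recruit the SIN3 and histone deacetylase corepressor, whereas MLX is a MAX-like partner that also dimerises with the glucose-sensing MondoA and ChREBP. Colorectal tumours commonly express MYC downstream of Wnt signalling. Aurora-A is known to bind N-MYC and MYC and to protect them from FBXW7-dependent degradation, so its link to the network is best known at the protein level, which RNA-seq does not measure.

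The libraries held between 22207768 and 23752269 fragments, and the median gene compared had 838 fragments. Aurka, the targeted gene, fell from 5724 to 1093 fragments in CT26 (log2 fold change -2.27) and from 2300 to 413 in MC38 (log2 fold change -2.44). The labels call CT26 a fibroblast and MC38 an epithelial cell. Of 12 epithelial markers, 2 could be compared between treatments, and Epcam, a surface marker of epithelium, had at most 1 fragment in any library. The summed FPKM (a level per transcript length and per library size) of the epithelial list was 42.7 to 43.1 in CT26 and 1.30 to 1.82 in MC38. Krt18 and Krt20 made up nearly all of the CT26 sum, whereas Vil1 and Esrp1 had 0 fragments in CT26 and 27 to 46 in MC38. Between the lines edgeR called 2 of the list higher in CT26 and 2 in MC38, beside 36.5% and 39.6% of all genes. Krt20 (2 and 0 fragments in MC38), Vil1 and Esrp1 reached the minimum only through the line where they were high. The calls of these genes could therefore go only 1 way. The summed FPKM of the 12 fibroblast markers was 1469 to 1477 in CT26, most of it from S100a4 and Vim, and 356 to 383 in MC38. Of 11 compared, 5 were called higher in CT26 and 2, Col3a1 and Pdgfra, in MC38, beside the same shares of all genes. By level the markers thus did not separate the lines as the labels do, and with such shares of all genes the calls say little. Of 12 leukocyte markers, 6 (with Ptprc and Cd3e) never exceeded 3 fragments, whereas Cd68 (79 to 145) and Lyz2 (31 to 98) were detected in all 4 and Cd79a (24 to 30) in MC38. Lyz2 and Cd79a were called higher in MC38 by edgeR, beside 39.6% of all genes. Cd79a, with 0 fragments in CT26, reached the minimum only through MC38, so its call could go only 1 way. A list of 18 mitosis genes had a median log2 fold change with the knockdown of 0.70 in CT26 and -0.08 in MC38, and its part in the results on the network was not tested.

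Across the 4 libraries Myc, Max and Mlx were the most abundant members per length. Myc stood highest, with a deposited FPKM of 195 (shGFP) and 209 (shmaurka-1) in CT26, and of 53.8 (shGFP) and 73.7 (shmaurka-1) in MC38. In the CT26 libraries no more than 3.51% of the genes with a mean of at least 10 counts lay above Myc in FPKM, against 12.2% in MC38 shGFP and 8.30% in MC38 shmaurka-1. Max, the obligate partner, followed with an FPKM of 58.0, 64.0, 41.1 and 49.8 in the same order, and Mlx with 32.7, 32.2, 26.4 and 22.9. These 3 genes kept this order in all 4 libraries and did not overlap within a line. The antagonists were lower, and their order depended on the line. In CT26 the order was Mnt (FPKM 7.62 to 10.0), Mxd1 (6.49 to 8.94), Mxd4 (4.14 to 4.17), Mxi1 (2.66 to 3.64) and Mxd3 (0.529 to 0.975), where the ranges of Mnt and Mxd1 overlapped. In MC38 it was Mxd4 (10.8 to 11.8), Mxi1 (6.29 to 7.33), Mxd3 (5.86 to 6.98), Mnt (4.63 to 4.79) and Mxd1 (1.88 to 1.89), where the ranges of Mxi1 and Mxd3 overlapped. The other MYC paralogues were at the limit of detection. Mycn (chr12:12936093-12941914), which is typical of neural and embryonic cells, had 3, 1, 1 and 0 fragments in CT26 shGFP, CT26 shmaurka-1, MC38 shGFP and MC38 shmaurka-1. Mycl (chr4:122995652-123002485) had 0 fragments in both CT26 libraries, and 5 and 8 in those of MC38.

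**Figure D1:**
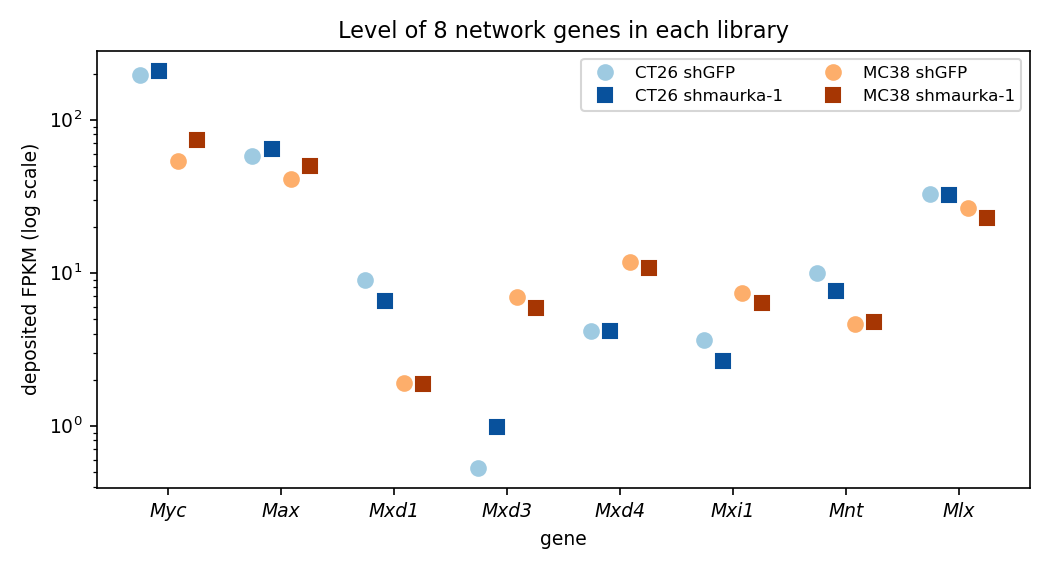
Deposited FPKM (log axis) of the 8 members that could be compared, with 1 point for each of the 4 libraries. Myc, Max and Mlx lie above the other members in every library, and Mxd1 and Mnt are higher in CT26 while Mxd3, Mxd4 and Mxi1 are higher in MC38.

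To compare treatments and lines, counts were scaled by TMM, a normalization to the bulk of genes, and given as CPM, counts scaled to library size. Genes with a mean of at least 10 counts over the 2 libraries of each line were compared, which left 11928 genes and 8 of the 10 members. Mycn and Mycl fell short of this minimum. Intervals are exact conditional (Clopper-Pearson) 95% intervals on fragments and cover counting error between 2 libraries only, not the spread between cultures.

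The first comparison asked how the network changed when Aurora-A was knocked down within each line. Myc differed between the lines. It lies on chromosome 15 (chr15:61985391-61990374 in GRCm38), at a locus of its own in the files. In CT26 Myc had 623 CPM with shGFP and 615 CPM with shmaurka-1 (13479 and 12244 fragments), a log2 fold change of -0.02 with an interval of -0.05 to 0.02. In MC38 it had 171 CPM with shGFP and 238 CPM with shmaurka-1 (4377 and 5956 fragments), a log2 fold change of 0.47 with an interval of 0.42 to 0.53, or 1.39-fold. Thus Myc mRNA was not lower in the knockdown library of either line beyond counting error, and in MC38 it was higher, a change exceeded in size by 7.42% of the genes compared. From FPKM, with 1 added before taking logs, the CT26 value was 0.10, so its sign depends on the unit. As this is RNA from whole cultures, more cells with Myc mRNA and more mRNA per cell cannot be told apart.

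Max and Mlx, like Myc, had intervals that included no change in CT26. Max (chr12:76937269-76962201) had 71.8 and 70.2 CPM in CT26 shGFP and shmaurka-1, a log2 difference of -0.03 (interval -0.14 to 0.07), and 57.6 and 65.4 CPM in MC38, a log2 difference of 0.18 (interval 0.08 to 0.29). Mlx (chr11:101087277-101095436) had 53.9 and 52.4 CPM in CT26, a log2 difference of -0.04 (interval -0.16 to 0.08), and 45.8 and 39.9 CPM in MC38, a log2 difference of -0.20 (interval -0.32 to -0.08). The MC38 knockdown library was therefore higher for Max, at 1.14-fold, and lower for Mlx, at 0.870-fold. From FPKM the CT26 value of Max was 0.14, so its sign, too, depends on the unit. Mlx shares its locus in the files with Psmc3ip, a meiotic recombination cofactor, and use of the strand in counting is not given in the sources used here, so its value is uncertain.

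Among the antagonists, Mxd1, Mxi1 and Mnt were lower in the CT26 knockdown library. Mxd1 (chr6:86647042-86669161), which is known to accumulate as cells leave the cycle and differentiate, went from 40.1 to 27.6 CPM in CT26 (868 and 549 fragments), a log2 fold change of -0.54 with an interval of -0.70 to -0.38. In MC38 it had 8.63 and 8.43 CPM (220 and 211 fragments), a log2 fold change of -0.03 with an interval of -0.31 to 0.25. The 0.688-fold value in CT26 did not pass the lower threshold of 0.6-fold. Mnt (chr11:74830920-74845725), the antagonist expressed in most proliferating cells, went from 66.4 to 47.8 CPM in CT26 (1437 and 951 fragments), a log2 fold change of -0.47 with an interval of -0.59 to -0.36. In MC38 it had 30.3 and 32.4 CPM (775 and 812 fragments), a log2 fold change of 0.10 with an interval of -0.05 to 0.24. Mnt was thus lower with shmaurka-1 in CT26, while the MC38 interval included no change. Mxi1 (chr19:53310506-53375810), a MAX partner also induced under hypoxia, was lower in both lines. It went from 15.7 to 11.1 CPM in CT26 (340 and 222 fragments), a log2 fold change of -0.49 with an interval of -0.74 to -0.25, and from 32.5 to 27.8 CPM in MC38 (829 and 695 fragments), a log2 fold change of -0.23 with an interval of -0.37 to -0.08.

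Mxd1 and Mxi1 share their loci in the files with predicted gene models, as do Max and Mxd4. Mxd4 (chr5:34173883-34187720), found mainly in resting and differentiating cells, had 17.5 and 16.3 CPM in CT26 and 48.7 and 45.7 CPM in MC38, with log2 fold changes of -0.10 (interval -0.32 to 0.12) and -0.09 (interval -0.21 to 0.03). Neither interval excluded no change, and from FPKM the CT26 value was 0.01. Mxd3 (chr13:55322055-55329758), which unlike the other MXD genes is expressed in S phase, had only 18 and 25 fragments in CT26, so its log2 fold change of 0.56 had an interval of -0.34 to 1.55. In MC38 it had 285 and 228 fragments, which gave a log2 fold change of -0.29 (interval -0.55 to -0.04). Mxd3 shares its locus in the files with Prelid1, an abundant gene for a mitochondrial lipid transfer protein, so its value is uncertain.

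**Figure D2:**
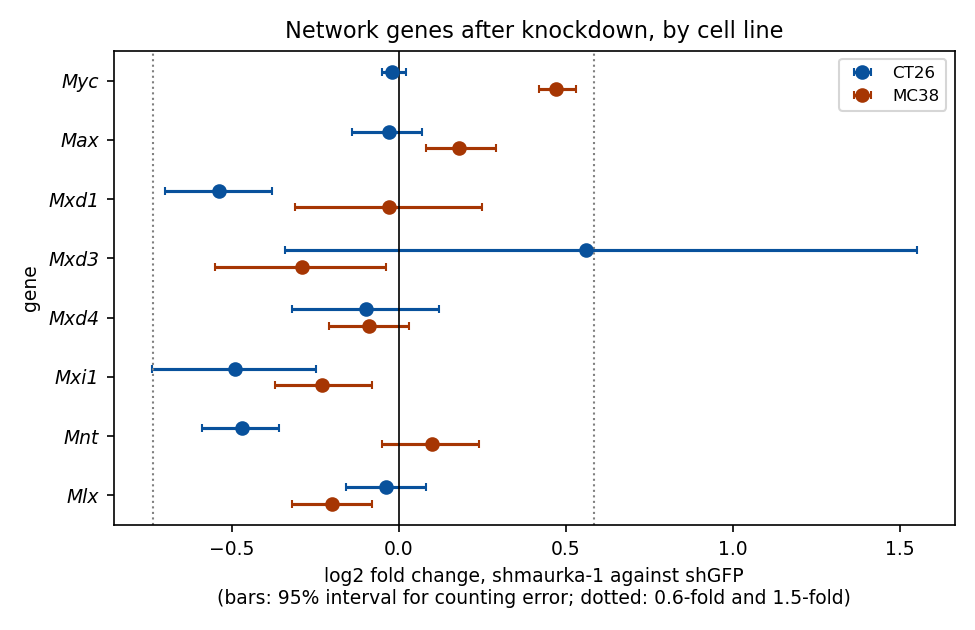
Log2 fold change of shmaurka-1 against shGFP for 8 members in CT26 and MC38, 1 library per condition, with bars for the 95% counting interval and dotted lines at 0.6-fold and 1.5-fold. Mxd1, Mxi1 and Mnt lie below 0 in CT26 (-0.54, -0.49 and -0.47) and Myc lies above 0 in MC38 (0.47), and no point passes a dotted line.

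By the thresholds of the study, over 1.5-fold higher or under 0.6-fold, 0 of the 8 members were past a threshold in CT26 and 0 in MC38. Over all 11928 genes 3.16% were past the upper and 2.56% past the lower threshold in CT26, and 2.53% and 1.03% in MC38. The thresholds are not symmetric, and with a lower one of 1/1.5 there were 377 genes higher and 511 lower in CT26, against 377 and 305 at 0.6, and 302 higher and 237 lower in MC38, against 302 and 123. In CT26 the counting interval lay below 0 for 3 of the 8 members and above 0 for 0, against 21.1% and 22.1% of all genes. In MC38 it lay below 0 for 3 members and above 0 for 2, against 22.3% and 22.8% of all genes. The median log2 fold change of the 8 members was -0.07 in CT26 and -0.06 in MC38, beside -0.01 and 0.00 over all genes.

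To look for a shift shared by the lines, edgeR's quasi-likelihood model was fitted with a block for the line. Its 1 residual degree of freedom added nothing to the trend over genes, which set each gene's spread. At an adjusted p (Benjamini-Hochberg) under 0.05 it called 0 of the 8 members, against 1.67% of all genes higher and 1.12% lower, together 2.79%, and DESeq2's Wald test and limma also called 0 members. At an unadjusted p under 0.05 edgeR listed 3 members, Myc, Mxd1 and Mxi1, against 12.3% of all genes. The mean log2 fold change over the lines given here and below is the model's coefficient. It is weighted, so that a line with few counts weighs less, and is not the plain average of the 2 lines. Mxi1 had a mean log2 fold change over the lines of -0.35 (SE 0.15, edgeR adjusted p = 0.230) and was lower in both lines. Mxd1 had one of -0.33 (SE 0.15, edgeR adjusted p = 0.313), and Myc one of 0.22 (SE 0.09, edgeR adjusted p = 0.224). For Mnt the value was -0.20 (SE 0.12), for Mlx -0.12 (SE 0.12), for Mxd4 -0.10 (SE 0.13), for Max 0.08 (SE 0.11) and for Mxd3 -0.07 (SE 0.25), with edgeR adjusted p-values of 0.562 to 0.965. The difference between the lines in their response could not be tested, since each condition has 1 library.

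The lines themselves differed far more than the treatments. Genes with a mean of at least 10 counts over the 4 libraries (13984 genes) were tested with edgeR with treatment as a block, so that each line entered with 2 cultures, 1 of each treatment. Here, too, the trend over genes set each gene's spread, so the very small p-values do not rest on a gene's own spread. At an adjusted p under 0.05 the test called 36.5% of all genes higher in CT26 and 39.6% higher in MC38, together 76.1%, and all 8 members compared were among those called, 5 higher in CT26 and 3 higher in MC38. With such a background the calls by themselves say little about the network, and the sizes are given instead. With total-count scaling the median of all genes was -0.38, against -0.04 with TMM, and 33.5% of the calls were higher in CT26 (3592 higher, 7139 lower) against 47.9% with TMM (5100 higher, 5544 lower).

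Myc was higher in CT26, with 615 to 623 CPM against 171 to 238 CPM in MC38, a log2 fold change of 1.66 (SE 0.09, edgeR adjusted p = 4.57e-67) or 3.17-fold. Set library against library, the log2 difference was 1.86 between the shGFP libraries and 1.37 between the shmaurka-1 libraries. Mxd1 was also higher in CT26, with 27.6 to 40.1 CPM against 8.43 to 8.63, a log2 fold change of 2.02 (SE 0.16, edgeR adjusted p = 2.66e-37) or 4.04-fold. Mnt was higher in CT26 with 47.8 to 66.4 CPM against 30.3 to 32.4, a log2 fold change of 0.89 (SE 0.12, edgeR adjusted p = 2.11e-12). So the line with more Myc mRNA also had more of these antagonists. The log2 difference in Mnt was 1.13 between the shGFP libraries and 0.56 between the shmaurka-1 libraries, and for Mxd1 it was 2.21 and 1.71. Without the treatment block, edgeR gave adjusted p-values between the lines of 7.57e-06 for Myc and 1.21e-05 for Mxd1. With limma on FPKM the adjusted p-values were 9.62e-06 and 9.71e-05.

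The other MXD genes ran the opposite way. Mxd4 had 45.7 to 48.7 CPM in MC38 and 16.3 to 17.5 in CT26, a log2 fold change of CT26 against MC38 of -1.44 (SE 0.14, edgeR adjusted p = 3.48e-25). Mxi1 had 27.8 to 32.5 CPM in MC38 and 11.1 to 15.7 in CT26, a log2 fold change of -1.13 (SE 0.15, edgeR adjusted p = 1.00e-13). Mxd3 had 9.09 to 11.1 CPM in MC38 and 0.830 to 1.25 in CT26, a log2 fold change of -3.22 (SE 0.28, edgeR adjusted p = 8.54e-30), the largest between the lines among the 8 members. All 3 genes were higher in MC38 with either hairpin, and the ranges of the lines did not overlap. Max and Mlx were close between the lines. Max had a log2 fold change of 0.26 (SE 0.11, edgeR adjusted p = 0.0279) and Mlx of 0.36 (SE 0.12, edgeR adjusted p = 0.00401). Neither call held with total-count scaling, where Max was at -0.08 and Mlx at 0.02, or with DESeq2's Wald test, with adjusted p-values of 0.168 and 0.0735. The small MC38 signal of Mycl, 13 fragments over both libraries against 0 in CT26, was 3.56-fold a floor of 3 fragments over the CT26 libraries. For CT26 against MC38 the log2 counting interval reached up to 0.36 between the shGFP libraries, which includes no change. Between the shmaurka-1 libraries it reached up to -0.44.

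**Figure D3:**
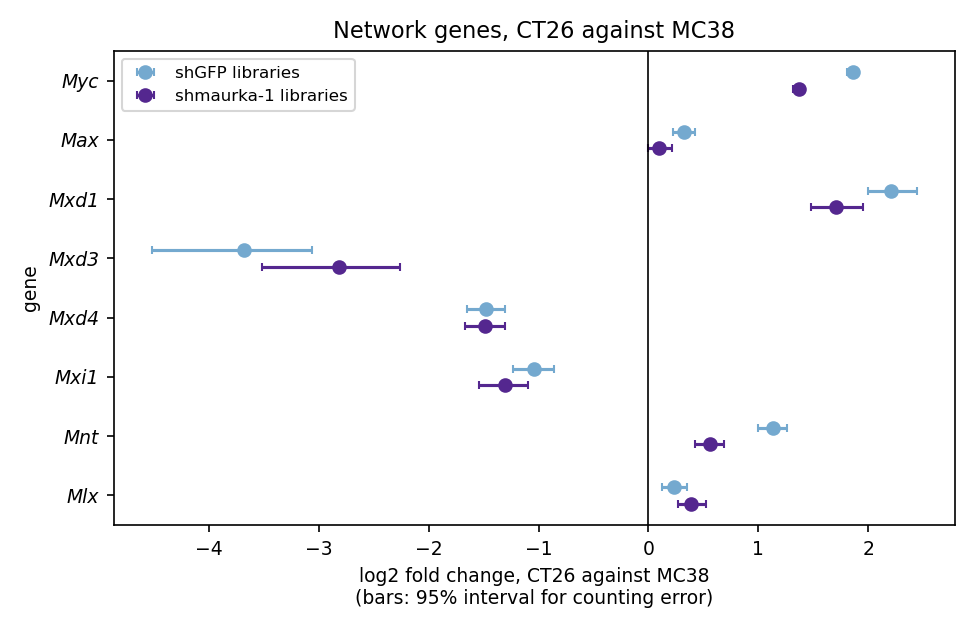
Log2 fold change of CT26 against MC38 for 8 members, separately for the shGFP and the shmaurka-1 libraries, with bars for the 95% counting interval. Myc, Mxd1 and Mnt lie above 0 and Mxd3, Mxd4 and Mxi1 below 0 with both hairpins, and Max and Mlx lie near 0.

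The make-up of the network per length followed from these levels. Summed over Mxd1, Mxd3, Mxd4, Mxi1 and Mnt, the antagonists had an FPKM of 27.3 (shGFP) and 21.9 (shmaurka-1) in CT26, and of 32.6 (shGFP) and 29.6 (shmaurka-1) in MC38. Mnt and Mxd1 made up 36.8% and 32.8% of that sum in CT26 shGFP, but 14.2% and 5.79% in MC38 shGFP, where Mxd4 (36.1%), Mxi1 (22.5%) and Mxd3 (21.4%) made up most of it. The antagonist pools of the lines thus differed in membership. The total FPKM over all genes also differed, at 562668 and 576941 in the CT26 libraries against 438399 and 452925 in those of MC38, so sums are compared within a line. The ratio of Myc to this sum in FPKM was 7.15 (shGFP) and 9.54 (shmaurka-1) in CT26, and 1.65 (shGFP) and 2.49 (shmaurka-1) in MC38. The ratio was higher in the knockdown library of both lines, through a lower antagonist sum mostly in CT26 and a higher Myc level mostly in MC38. Myc exceeded Max by 3.37 and 3.27 times in CT26 shGFP and shmaurka-1, and by 1.31 and 1.48 times in MC38. These ratios rest on 1 library each, and FPKM carries no depth, so they have no error.

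**Figure D4:**
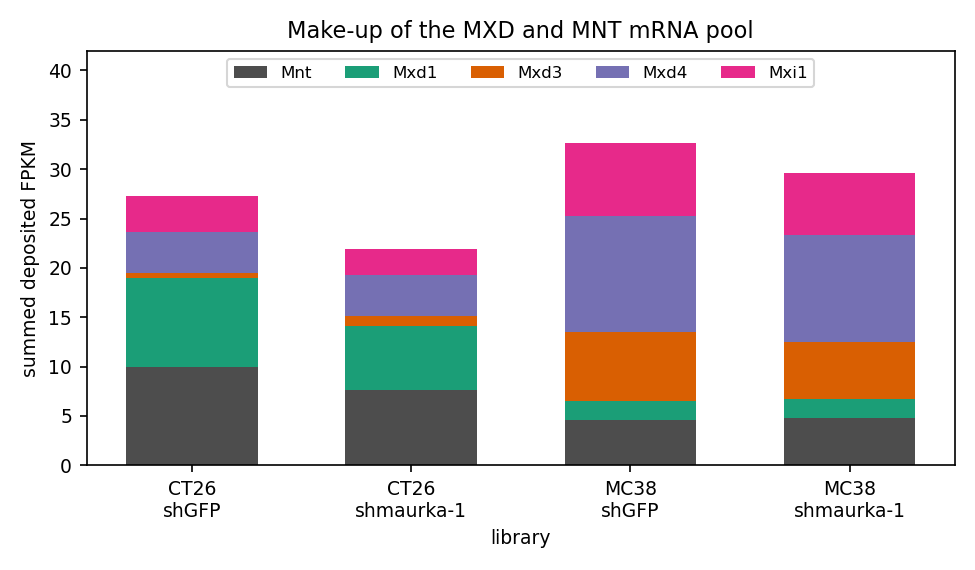
Deposited FPKM of Mnt, Mxd1, Mxd3, Mxd4 and Mxi1, stacked, in each of the 4 libraries. The sums are 27.3, 21.9, 32.6 and 29.6 from left to right, with Mnt and Mxd1 the larger parts in CT26 and Mxd4, Mxi1 and Mxd3 in MC38.

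Promoter windows of the members were searched for the E-box, the 6 letters that MYC, MXD and MNT dimers with MAX are known to bind. RefSeq windows from 250 bases before to 50 bases after the start site (GRCm38.p6) were given for 9 of the 10 members, all but Myc, which was not searched. The letters CACGTG, which read the same on both strands, were found in those of Max, Mlx, Mnt and Mxd4. That is 4 of 9 genes, against 8.09% of all genes with a window and 11.8% of those with a mean of at least 10 counts. The 30 bases around each match are shown 5′ to 3′ on the strand of the gene, with the E-box in capitals, because they mark the members with a possible site for the network itself. They lie at chr12:76962234-76962263 (minus strand), chr11:101087238-101087267 (plus strand), chr11:74830789-74830818 (plus strand) and chr5:34187912-34187941 (minus strand).
Max: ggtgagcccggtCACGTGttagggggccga
Mlx: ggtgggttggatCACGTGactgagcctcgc
Mnt: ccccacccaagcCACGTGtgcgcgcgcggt
Mxd4: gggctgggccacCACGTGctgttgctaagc

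The first E-box base lay 3 bases before the start site in Max, 40 in Mlx, 123 in Mnt and 219 in Mxd4. A match is a description of the letters and not a bound site. Of the 4 genes with the letters, only Mnt was lower in the CT26 knockdown library beyond counting error, and the other antagonists lower there, Mxd1 and Mxi1, have windows without them. The whole windows of Mnt and Mxd1, both lower in the CT26 knockdown library, one with the letters and the other without, are given for comparison, at chr11:74830674-74830973 (plus strand) and chr6:86669110-86669409 (minus strand), with the E-box of Mnt in capitals.
Mnt: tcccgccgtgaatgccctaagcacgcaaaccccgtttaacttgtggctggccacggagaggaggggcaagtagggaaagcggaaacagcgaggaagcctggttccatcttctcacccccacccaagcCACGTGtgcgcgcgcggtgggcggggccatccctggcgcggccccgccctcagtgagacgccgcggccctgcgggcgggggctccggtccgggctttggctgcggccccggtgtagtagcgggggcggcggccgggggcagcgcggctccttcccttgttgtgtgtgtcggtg
Mxd1: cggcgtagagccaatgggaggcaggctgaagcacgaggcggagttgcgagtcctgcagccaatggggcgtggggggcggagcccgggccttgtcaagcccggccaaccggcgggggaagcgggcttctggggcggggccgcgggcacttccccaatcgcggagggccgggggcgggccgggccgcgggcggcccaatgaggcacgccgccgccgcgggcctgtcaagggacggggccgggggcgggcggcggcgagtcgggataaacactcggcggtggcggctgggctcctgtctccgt

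Genes that the network is known to act on were described next, from a list of 30 genes that MYC induces, most of them for ribosome assembly, translation and nucleotide or polyamine synthesis. All 30 were compared, and 0 passed a threshold in either line, beside 3.16% (higher) and 2.56% (lower) of all genes in CT26 and 2.53% and 1.03% in MC38. In CT26 25 of the 30 were higher in the knockdown library, with a median log2 fold change of 0.11, and in MC38 27 were higher, with a median of 0.14, beside medians over all genes of -0.01 and 0.00. The counting interval lay above 0 for 22 and below 0 for 5 of them in CT26, beside 22.1% and 21.1% of all genes, and for 24 and 2 in MC38, beside 22.8% and 22.3%. The list had a median of 4990 fragments per gene against 838 over all genes, so its intervals are narrower. The test common to both lines called 1 of the 30 higher and 0 lower, beside 1.67% and 1.12% of all genes. That gene was Srm, the spermidine synthase, with 5471 and 6110 fragments in CT26 shGFP and shmaurka-1 and 2588 and 3349 in MC38, a mean log2 fold change of 0.34 (SE 0.10, edgeR adjusted p = 0.0248), a call that DESeq2's Wald test (adjusted p = 0.568) did not make. Odc1, the ornithine decarboxylase upstream of it and a classical MYC target, chosen after its values were seen, was at -0.24 (interval -0.26 to -0.22) in CT26 and 0.05 in MC38 on the log2 scale. Between the lines 20 of the 30 were called higher in CT26, the line with more Myc mRNA, and 1 higher in MC38, beside 36.5% and 39.6% of all genes, with a median log2 fold change of 0.54 beside -0.04 over all genes.

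Genes listed as repressed by MYC did not move together. Of 7 listed, 5 could be compared, with a median of -0.19 in CT26 and 0.15 in MC38 on the log2 scale. The counting interval lay above 0 for 1 and below 0 for 4 in CT26, beside 22.1% and 21.1% of all genes. In MC38 it lay above 0 for 3 and below 0 for 2, beside 22.8% and 22.3%. The test common to both lines called 1 of the 5 higher and 0 lower, beside 1.67% and 1.12% of all genes. That gene, Gadd45a, a stress-induced growth arrest gene, had 10230 and 13908 fragments in CT26 and 5760 and 7448 in MC38, with a mean log2 fold change of 0.48 (SE 0.09, edgeR adjusted p = 4.52e-05). The call held with DESeq2's Wald test (adjusted p = 0.0494) and was lost with limma on FPKM (adjusted p = 0.343). Gadd45a shares its locus in the files with another gene. Between the lines 4 of the 6 repressed genes compared were called higher in CT26 and 2 higher in MC38, beside 36.5% and 39.6% of all genes. Of those 2, Cdkn2b had 0 and 1 fragments in CT26, so its call could go only 1 way. The median log2 fold change of CT26 against MC38 was 2.30, beside 0.54 for the MYC-induced list and -0.04 over all genes. Both lists thus had medians higher in CT26, and a link to the Myc level was not tested.

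**Figure D5:**
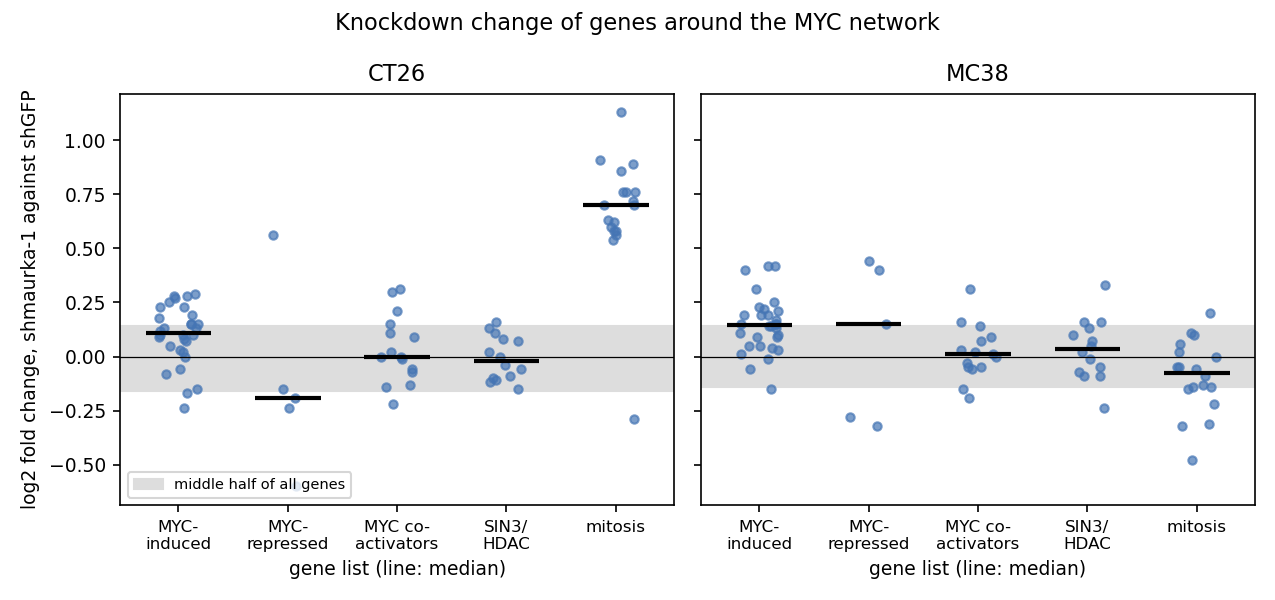
Log2 fold change of shmaurka-1 against shGFP for the genes of 5 lists in CT26 and MC38, with a point per gene, a line at the list's median and a grey band for the middle 50% of all genes. MYC-induced genes have medians of 0.11 and 0.14, and mitosis genes stand apart in CT26, with a median of 0.70.

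Cofactors of the network gave no calls in the test common to both lines. It called 1.67% of all genes higher and 1.12% lower, so 0 calls in such short lists say little. Of the 14 genes of the SIN3 and histone deacetylase corepressor, through which MXD and MNT repress, 0 passed a threshold and 0 were called, with medians of -0.02 (CT26) and 0.03 (MC38) on the log2 scale. Past a threshold were 3.16% (higher) and 2.56% (lower) of all genes in CT26 and 2.53% and 1.03% in MC38, so 0 of so few genes says little. The counting interval lay above 0 for 4 and below 0 for 3 of these genes in CT26, and for 6 and 4 in MC38, beside 22.1% and 21.1% of all genes in CT26 and 22.8% and 22.3% in MC38. Ncor1, the listed gene with most counts, had a mean log2 fold change over the lines of -0.02. Of the 15 coactivators, 0 passed a threshold and 0 were called, with medians of 0.00 and 0.01, and Trrap, the one with most counts, had a mean log2 fold change of 0.07. Their counting intervals lay above 0 for 6 and below 0 for 4 in CT26, and for 5 and 4 in MC38, beside the same shares of all genes. The 13 compared genes that act upstream of Myc transcription had medians of 0.12 and 0.13, close to those of the MYC-induced list. Their intervals lay above 0 for 7 and below 0 for 1 in each line, beside 22.1% and 21.1% of all genes in CT26 and 22.8% and 22.3% in MC38. The list had a median of 2750 fragments per gene against 838 over all genes, so its intervals are narrower. The common test called 0 of them, beside 1.67% (higher) and 1.12% (lower) of all genes. Cnbp and Rbpj, with most counts there, had mean log2 fold changes of 0.16 and 0.23.

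Genes for MYC protein stability, kinases, phosphatases, ubiquitin ligases and deubiquitinases that set its half-life, included Aurka itself. Of 21 compared, with medians of 0.04 and -0.04, 1 was called higher and 1 lower, beside 1.67% and 1.12% of all genes, and the lower one was Aurka. The higher one was Plk1, the mitotic kinase that counters FBXW7, with 3276 and 4675 fragments in CT26 shGFP and shmaurka-1 and 1840 and 1826 in MC38, a mean log2 fold change of 0.34 (SE 0.10, edgeR adjusted p = 0.0428). Its change came from CT26, where its log2 fold change was 0.63 against 0.02 in MC38, and the call was lost with total-count scaling (adjusted p = 0.0764) and with DESeq2's Wald test. Plk1 is also in the mitosis list, of which 17 of 18 genes were higher in CT26 and 5 in MC38. In CT26 13 of them were over 1.5-fold higher, beside 3.16% of all genes, and 0 in MC38, beside 2.53%. The 8 mitosis genes called higher by the common test, which called 1.67% of all genes higher, were Plk1, Cdc20, Bub1b, Kif20a, Top2a, Aurkb, Ccna2 and Mki67, although Kif20a, Top2a, Aurkb and Mki67 were lower in MC38, with intervals below 0, and only Cdc20, Bub1b and Ccna2 of the 8 had intervals above 0 in both lines. Ccnb1, Ccnb2, Bub1, Kif11 and Birc5 passed 1.5-fold in CT26 without being called. Fbxw7, the ligase that targets phosphorylated MYC, shares its locus with many other genes in the files and had log2 fold changes of -0.13 and -0.11, and Skp2 is listed at 0 in all 4 libraries.

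Further E-box proteins and partners outside the members gave 1 call, lower, among 6 compared, where 1.12% of all genes were called lower. The 6 compared had medians of -0.13 in CT26 and 0.01 in MC38, with counting intervals below 0 for 5 in CT26, beside 21.1% of all genes, and for 1 in MC38, beside 22.3%, and above 0 for 0 in either line. Bhlhe40, a repressor of the circadian clock that binds the same E-box, fell in the test common to both lines. It went from 6607 to 3288 fragments in CT26, or -0.89 on the log2 scale (interval -0.95 to -0.83) and past the lower threshold, and from 776 to 570 in MC38, or -0.42 (interval -0.57 to -0.26). The mean log2 fold change was -0.68 (SE 0.11, edgeR adjusted p = 1.52e-07). The call held with DESeq2's Wald test (adjusted p = 0.0137) and not with limma on FPKM (adjusted p = 0.343), and its locus in the files is shared with other genes. Mga, a large partner of MAX, had a mean log2 fold change of -0.05, with an interval of -0.16 to -0.03 in CT26, and Mlxip, a partner of MLX, one of 0.01.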

How the data were processed

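RNA from 4 libraries, 1 per condition, was analysed. The submitters' processing notes name Trimmomatic 0.36, HISAT2, Cufflinks 2.2.1 and Cuffdiff. The authors deposited estimated counts and FPKM per gene. The notes name GRCm39, but 99.8% of 20022 genes that share no locus overlapped their namesake in RefSeq GRCm38.p6, against 9.64% of 23045 in GENCODE GRCm39, so coordinates are GRCm38, with starts written from 1. The deposited estimated counts had been scaled per library. Between 97.0% and 97.7% of the nonzero values were whole multiples, within 0.05, of a step of 1.06 (CT26 shGFP), 1.17 (CT26 shmaurka-1), 0.885 (MC38 shGFP) and 0.901 (MC38 shmaurka-1), which gave fragments.

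Counts were rounded and tested with edgeR 4.0.16 in R 4.3.3, with TMM scaling and Benjamini-Hochberg adjustment over all genes tested. Within a line, 1 count scaled to library size was added for fold changes. The test scripts were tested on simulated data. DESeq2 1.42.0, limma 3.58.1, other scalings, filters, added counts and FPKM were alternatives. Python 3.11.15 with scipy 1.17.1 was used for intervals. The edgeR p-values rest on a spread set by the trend over genes in these libraries, not on each gene's own spread. No p-value covers the spread beyond these libraries.

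The members and lists were chosen with earlier results of these data known. Named are all members, Aurka, from each list the genes called or past 1.5-fold or 0.6-fold or, with none, the 2 with most counts, and the 3 genes closest in pattern to Myc and to members ranging over at least 1 log2 unit. Mitosis genes and cell type markers are given mainly as counts. Some genes that this rule names are not reported here. Other assays of the study were not analysed here.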

Additional observations from a re-analysis of the deposited data

Results flagged for a closer look

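In all, 4 members had knockdown log2 fold changes of opposite sign in CT26 and MC38, and the difference was not tested because each condition has 1 library. CT26 minus MC38, the difference was -0.49 for Myc, -0.22 for Max, 0.86 for Mxd3 and -0.57 for Mnt. For none of these 4 genes did the counting intervals of both lines exclude no change. Differences of larger size were found for 14.8%, 44.4%, 4.75% and 11.6% of all genes compared, in the same order. From FPKM with a pseudocount of 1, Myc (0.10 in CT26 and 0.45 in MC38) and Max (0.14 and 0.27) had the same sign in both lines, whereas Mxd3 and Mnt kept opposite signs.

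The medians of 5 lists also had opposite signs in the lines, likewise not tested. The difference of the medians was -0.14 for the further partners, -0.05 for the SIN3 and histone deacetylase corepressor, 0.08 for MYC protein stability, -0.34 for MYC-repressed targets and 0.78 for mitosis genes.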

How the results depend on the processing

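All 8 members compared stayed under the thresholds of 1.5-fold and 0.6-fold in both lines with other scalings, 5 counts added, FPKM with a pseudocount of 1, a stricter minimum (which leaves out Mxd3) and a lower threshold of 1/1.5. With no count added, and with FPKM and a pseudocount of 0.1, 1 member (Mxd3) passed in CT26, and with no filter 1 (Mycn) passed in CT26 and 2 (Mycn and Mycl) in MC38. Counts of all genes past the thresholds were 682 in CT26 and 425 in MC38. They were 256 and 125 at a minimum mean of 50 counts, 5479 and 6061 with no filter, and 280 and 154 with FPKM and a pseudocount of 1. The test common to both lines called 333 genes, 28 with DESeq2's Wald test, 101 at that minimum and 1 with limma on FPKM, and 0 members under any of these. Each line gives 1 pair of libraries, so blocking on the line already pairs them. Without the replicate block edgeR called 0 genes, and the unadjusted p was under 0.05 for 13. Scaling by total counts gave 157 higher and 163 lower (49.1% higher), where TMM gave 199 and 134 (59.8%). The sign reversed for Mxd3 in that test with DESeq2 (0.04) and limma (0.08), and for Max between the lines with total-count scaling (-0.08), and within CT26 from FPKM for Myc (0.10), Max (0.14) and Mxd4 (0.01). With no low-count filter, an alternative chosen after seeing the data, the common test called 266 genes and 0 members, and all 8 members stayed called between the lines. The causes were not tested. Leaving out a library leaves no residual degree of freedom. Few fragments limit Mycn, Mycl and, in CT26, Mxd3.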

Other observations

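The genes with the pattern most like that of a member were found by the Euclidean distance between centred log2 levels over the 4 libraries, among 11539 genes with a mean of at least 50 counts. With 4 libraries many genes lie close, so this is a description only. For Myc the nearest were Fkbp11 (distance 0.012), Msra (0.065) and Btg1 (0.073), and 27 genes lay within 0.2. For Mxd1 they were Gabarapl1 (0.092), Atxn1 (0.103) and Per1 (0.148), for Mnt Zfp953 (0.098), Gtf2f1 (0.102) and Nudt9 (0.102), and for Mxi1 Acox3 (0.050), Klhl15 (0.052) and Zdhhc12 (0.068). For Mxd3 they were Tbc1d32 (0.106), Gramd3 (0.140) and Nsd1 (0.146), and for Mxd4 AC160637.1 (0.026), Fzd7 (0.032) and Gtf2e2 (0.035), where 184 genes lay within 0.2.

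Among the 30 MYC-induced genes, 24 had a promoter window and 9 of these, or 37.5%, held the letters CACGTG, beside 8.09% of all genes with a window and 11.8% of those with a mean of at least 10 counts, among them Cdk4, Ldha, Eif4e, Hspd1, Nop2 and Nme1.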
